A study of Mus musculus with 6 samples.

Results

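The genes described here are 10 regulators and feedback genes of the integrated stress response, the pathway that ends in the transcription factor ATF4: Atf4, Atf5, Ddit3, Cebpg, Trib3, Chac1, Sesn2, Ppp1r15a, Eif4ebp1 and Adm2. They are 10 of 55335 gene rows in the deposited count table, and each was found by matching its Ensembl identifier to its symbol. The set was selected on known roles in the ATF4 pathway, but by someone who had already seen the difference between genotypes in these libraries. The genotype differences of the 10 genes are therefore given as a description, without a p-value for each gene, and support nothing by themselves. Which of the 10 genes a fit called is stated, but nothing is read from those calls. The symbol Ddit3 also belongs to a second row of 105 exon bases, which held 0 counts in every library and was not used.

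The libraries are bulk RNA-seq of intestinal tissue from 6 mice with DSS colitis. DSS (dextran sulfate sodium) is given to rodents to damage the gut lining. Trmt6-/- mice (libraries KO72, KO73 and KO75) were compared with wild-type (WT) mice (libraries WT185, WT186 and WT187), and values per library are listed in that order of libraries within each group. TRMT6 has no catalytic site itself and works with TRMT61A, the catalytic partner, in methylating adenosine in tRNA. Strain, age, sex, DSS dose, how the Trmt6 allele was made and the intestinal segment are not given in the sources used here. Untreated mice were not analysed here.

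Cells respond to amino acid shortage, misfolded proteins, viral RNA or lack of heme through kinases that phosphorylate the translation initiation factor eIF2. Most translation then falls, while ATF4 and ATF5 are made more efficiently because of short open reading frames in their mRNA leaders. ATF4 binds DNA as a dimer with another basic leucine zipper protein, such as C/EBPγ (Cebpg) or CHOP (Ddit3), and raises transcription of amino acid transporters, synthetic enzymes and regulators. Some of those regulators dampen the pathway in turn. The RNA counts measured here show transcript abundance, not translation or eIF2 phosphorylation.

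The composite element that ATF4 binds with a C/EBP partner is written here as TGATGNAAN. It was searched on both strands of the RefSeq promoter windows (GRCm38.p6), which run from 250 bases before to 50 bases after the start of a gene. Of the 10 genes, 9 had a window, and the windows of 2 of them, Chac1 and Trib3, held a match. A match was present in 3.95% of all 32851 windows, and 4.50% of 27025 genes had a match in a window. Matches are a description of letters, not of binding. The stretches below lie upstream of the start of Chac1, Trib3, Atf5 and Adm2, which stood higher in the libraries labelled Trmt6-/-, and of Atf4 itself. They are shown so that the windows with and without the element can be read beside the transcript levels. Each runs 5′ to 3′ on the strand of the gene, and capitals mark a match.
Chac1, chr2:119351012-119351131, plus strand: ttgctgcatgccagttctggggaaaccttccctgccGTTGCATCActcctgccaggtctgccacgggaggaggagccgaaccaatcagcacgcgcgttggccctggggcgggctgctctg
Trib3, chr2:152344061-152344180, minus strand: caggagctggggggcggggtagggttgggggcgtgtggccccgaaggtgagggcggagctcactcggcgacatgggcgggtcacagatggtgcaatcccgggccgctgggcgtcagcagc
Trib3, match after the RefSeq start, chr2:152344028-152344057, minus strand: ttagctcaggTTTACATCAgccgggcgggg
Atf5, chr7:44816659-44816778, minus strand: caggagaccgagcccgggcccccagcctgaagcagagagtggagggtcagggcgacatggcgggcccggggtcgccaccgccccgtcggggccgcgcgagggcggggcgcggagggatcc
Adm2, chr15:89322600-89322719, plus strand: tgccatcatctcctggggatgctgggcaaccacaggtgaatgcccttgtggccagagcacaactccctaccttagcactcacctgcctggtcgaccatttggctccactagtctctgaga
Atf4, chr15:80255064-80255183, plus strand: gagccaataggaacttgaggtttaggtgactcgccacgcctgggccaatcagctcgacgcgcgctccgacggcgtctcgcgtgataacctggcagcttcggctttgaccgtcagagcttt

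The Chac1 match read GTTGCATCA and began 194 bases upstream of the start, on the opposite strand. The Trib3 match read TTTACATCA, also on the opposite strand, and its first base lay 13 bases after the RefSeq start base. Among other ATF4 target enzymes and transporters, 4 of 16 genes with a window had a match. One of these, the cystine transporter gene Slc7a11, carried 2 matches, TGATGCAAA beginning 66 bases upstream and TTTGCATCA beginning 48 bases upstream.

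Of the 10 genes, 7 have at least 1 AUG in the leader of the GENCODE M21 transcript with the longest coding sequence (70.0%), against 51.6% of 12199 tested coding genes with a leader. Ppp1r15a had 7 upstream AUGs in 764 leader bases, Cebpg 4 in 392, Atf4 3 in 594, and Atf5 2 in 373. Ddit3 had 2, and Sesn2 and Adm2 had 1 each. Trib3, Chac1 and Eif4ebp1 had 0. The median leader of the 10 was 360.5 bases, against 177 bases over those tested genes.

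Counts summed to between 15213972 and 16972758 per library, and 14107 genes were abundant enough to test. Trmt6 itself was measured at 39.8, 34.2 and 36.2 CPM in Trmt6-/-, against 30.9, 18.7 and 23.1 CPM in WT (edgeR adjusted p = 0.335), where CPM is the count scaled to the TMM-adjusted library size. The targeted gene's transcript therefore did not mark the knockout libraries by a lower level. It stood higher in them without overlap (log2 fold change 0.60 ± 0.21). The gene counts do not show which exons were read, and every direction below rests on the labels. The 10 small intestinal epithelial markers summed to between 27830 and 39760 CPM in Trmt6-/- and between 20750 and 35440 CPM in WT, whereas 4 of 8 distal colon markers (Hoxb13, Hoxd12, Hoxd13 and Hoxa13) held 0 counts in all 6 libraries. The distal colon list summed to between 201.5 and 433.3 CPM in Trmt6-/- and between 140.5 and 218.2 CPM in WT, most of it Car4, which stood at 200.4, 231.7 and 433.0 CPM in Trmt6-/-, against 162.2, 145.7 and 139.2 CPM in WT. The other tested markers of that list went the other way. Aqp8 stood at 0.282, 0.698 and 0 CPM in Trmt6-/-, against 8.02, 54.5 and 0.959 CPM in WT, without overlap, and Slc37a2 had a log2 fold change of -3.25, which was also the list median. Monocyte, macrophage and neutrophil markers summed to at most 28.47 CPM, and T and NK cell markers to between 126.5 and 1034 CPM in Trmt6-/- and between 369.4 and 1381 CPM in WT. The regional index, the mean log2 CPM of ileal minus proximal marker genes, took the values 0.61, -1.004 and -3.67 in Trmt6-/-, against -1.69, -7.41 and -6.04 in WT, and the groups overlapped in it. Of its 8 marker genes 2 separated the groups, 1 of 4 ileal genes higher and 1 of 4 proximal genes lower in Trmt6-/-. Over all genes tested 9.7% stood higher and 9.03% lower without overlap, so nothing is read from that count. The ileal marker Slc51b stood at 75.6, 90.3 and 99.7 CPM in Trmt6-/-, against 46.4, 54.0 and 31.3 CPM in WT, and the proximal marker Gata4 at 82.2, 132.1 and 132.4 CPM in Trmt6-/-, against 156.1, 271.2 and 213.7 CPM in WT. The median log2 fold change was 0.63 for the 4 ileal markers and -1.48 for the 4 proximal markers, and edgeR called 0 of either. The part of position in the results below was not tested beyond the fit with the index. In bulk tissue, a change in how many cells of a type are present and a change in RNA per cell cannot be told apart.

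Atf4, on chromosome 15 (80255184 to 80257541, mm10), encodes the transcription factor at the centre of the pathway and was the most abundant of the 10 transcripts per length. It was measured at 252, 214 and 326 CPM in Trmt6-/-, against 156, 142 and 187 CPM in WT. The groups did not overlap, but the gap was narrow, with the lowest library labelled Trmt6-/- at 1.14 times the highest WT library. The means were 264 ± 56.8 CPM in Trmt6-/- and 162 ± 23.1 CPM in WT (SD, n = 3 each), a log2 fold change of 0.71 ± 0.21 (estimate ± SE, Trmt6-/- over WT).

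Atf5, on chromosome 7 (44812256 to 44816658), encodes a related basic leucine zipper factor that is itself transcribed under ATF4 and CHOP and acts in the mitochondrial stress response. It stood at 82.6, 63.3 and 105 CPM in Trmt6-/-, against 14.6, 9.07 and 10.7 CPM in WT. The lowest library labelled Trmt6-/- was 4.32 times the highest WT library. Its log2 fold change was 2.86 ± 0.27, and it was the 1 gene of the 10 that edgeR called at an adjusted p below 0.05 over all genes tested. Over all 14107 genes 6 were called (0.0425%), and because the set was chosen with this contrast known nothing is read from the 1 of 10. Atf5 was not called when any 1 of the 6 libraries was left out, although its log2 fold change then stayed between 2.67 and 3.10. The exons of Atf5 share 82 of 1993 bases with exons of Il4i1 and Nup62 on the other strand, and reads in those bases were not counted.

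Transcripts of both partners of ATF4 overlapped between the groups. Ddit3, on chromosome 10 (127290774 to 127296288), encodes CHOP, a factor that pairs with ATF4 and is linked to cell death under lasting stress. It was measured at 12.3, 7.12 and 14.2 CPM in Trmt6-/-, against 7.19, 14.0 and 12.5 CPM in WT. The groups overlapped, with means of 11.2 ± 3.68 CPM in Trmt6-/- and 11.2 ± 3.58 CPM in WT, and the sign of its log2 fold change turned in 9 of 15 alternative fits (range -0.22 to 0.54). Of its 1713 exon bases, 186 are shared with other annotated rows, among them Mars on the opposite strand, and reads there were not counted.

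Cebpg, on chromosome 7 (35046422 to 35056573), encodes C/EBPγ, which lacks an activation domain of its own and serves as a dimer partner of ATF4. It stood at 104, 107 and 117 CPM in Trmt6-/-, against 81.3, 116 and 119 CPM in WT. The groups overlapped, and WT185 alone was low. The log2 fold change was 0.06 ± 0.18, and its sign turned in 2 of the 15 alternative fits. Over these fits it ranged from -0.08 to 0.36, and was highest with the regional index as a covariate.

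Trib3, on chromosome 2 (152337422 to 152344032), encodes a pseudokinase that is induced by ATF4 and CHOP and restrains them. It was measured at 20.8, 23.6 and 32.7 CPM in Trmt6-/-, against 3.33, 9.96 and 5.81 CPM in WT. The groups did not overlap, and the WT libraries were more spread on the log2 scale (SD 0.77) than those labelled Trmt6-/- (SD 0.33). The log2 fold change was 2.02 ± 0.42.

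Chac1, on chromosome 2 (119351229 to 119354381), encodes an enzyme that degrades glutathione. It held 209, 104 and 230 counts in Trmt6-/-, against 9, 1 and 11 counts in WT, which is 11.8, 7.26 and 16.4 CPM against 0.469, 0.0682 and 0.659 CPM. WT186 had a single count, and even the highest WT library lay 11.0 times below the lowest one labelled Trmt6-/-. With so few WT counts, Chac1 entered the test only through the libraries labelled Trmt6-/-. The ratio of summed counts, scaled to the TMM-adjusted library sizes, was 28.4. Its exact (Clopper-Pearson) 95% interval of 18.4 to 46.2 covers counting error only.

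Adm2, on chromosome 15 (89322720 to 89324731), encodes the secreted peptide adrenomedullin 2 (intermedin), a hormone of the calcitonin family. It held 64, 33 and 49 counts in Trmt6-/-, against 2, 0 and 1 counts in WT. It was the scarcest of the 10 and, like Chac1, entered the test only through the libraries in which it was high. The ratio of summed counts, scaled in the same way, was 53.4, with an exact 95% interval of 17.9 to 262 for counting error. The level of Adm2 in WT rests on 3 counts in all.

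Eif4ebp1, on chromosome 8 (27260329 to 27276674), encodes 4E-BP1, which holds the cap-binding protein eIF4E away from the initiation complex until mTORC1 phosphorylates it. It stood at 38.0, 40.9 and 42.1 CPM in Trmt6-/-, against 12.9, 5.53 and 6.41 CPM in WT. The libraries labelled Trmt6-/- lay close together (SD 0.08 on the log2 scale), whereas WT185 stood above the other WT libraries (SD 0.64). The log2 fold change was 2.28 ± 0.34.

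Ppp1r15a, on chromosome 7 (45522916 to 45526268), encodes GADD34, which brings a phosphatase to phosphorylated eIF2. It was measured at 9.14, 7.75 and 7.97 CPM in Trmt6-/-, against 4.32, 4.09 and 12.9 CPM in WT. The 3 libraries labelled Trmt6-/- fell between the low pair of WT libraries and WT187, so the groups overlapped. The log2 fold change of 0.22 ± 0.48 became 0.96 without WT187 and -0.04 without WT186. The 10 immediate early genes, a list added after values were seen, summed to 1913, 1200 and 1243 CPM in Trmt6-/-, against 777.2, 1071 and 3522 CPM in WT. WT187 was thus the highest library for that list as well, and Fos stood at 343 to 572 CPM in Trmt6-/-, against 212, 305 and 1124 CPM in WT. The part of that difference in the Ppp1r15a value was not tested.

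Sesn2, on chromosome 4 (132492032 to 132510501), encodes sestrin 2, a leucine sensor that restrains mTORC1. It stood at 17.6, 17.4 and 16.5 CPM in Trmt6-/-, against 16.4, 14.3 and 14.7 CPM in WT. The groups were apart by a factor of only 1.01, and the log2 fold change was 0.18 ± 0.17.

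**Figure D1:**
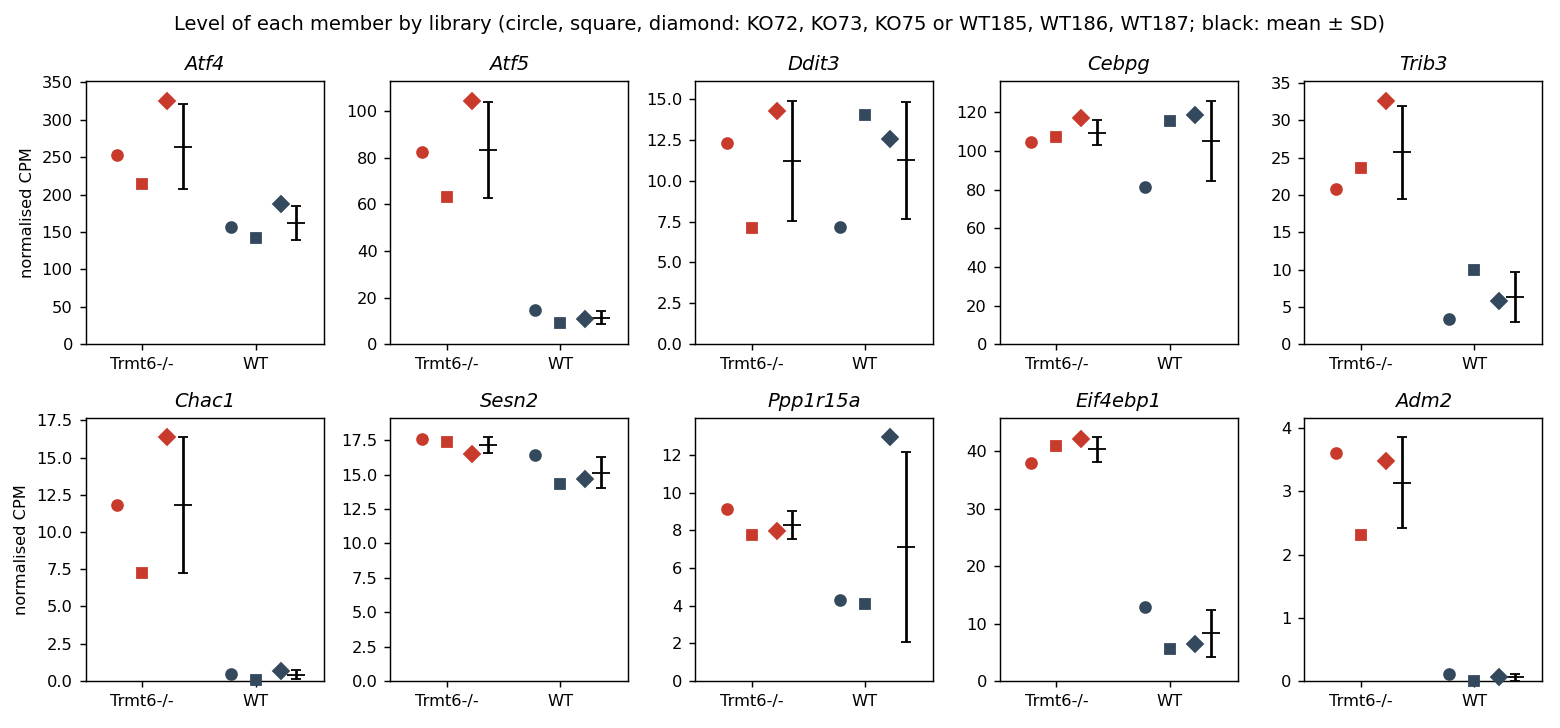
Normalised CPM of each gene (y axis, a scale of its own per gene, from 0) in the 3 libraries labelled Trmt6-/- (red) and the 3 WT libraries (dark blue), with the mean ± SD in black. Atf5, Trib3, Chac1, Eif4ebp1 and Adm2 are well separated, Atf4 and Sesn2 are narrowly separated, and Ddit3, Cebpg and Ppp1r15a overlap.

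In all, 7 of the 10 genes stood higher in Trmt6-/- without overlap and 0 stood lower without overlap. Over all genes tested 9.7% stood higher and 9.03% lower without overlap, and with this contrast known when the set was chosen nothing is read from the count. The median log2 fold change of the 10 genes was 1.36, against -0.03 over all genes tested, of which 46.1% were above 0 and 1706 of 14107 had an unadjusted p below 0.05. With library totals in place of TMM scaling the median of all genes was -0.105, and the 7 genes were still above 0 in every alternative fit. The differences fell into a large class (Adm2, Chac1, Atf5, Eif4ebp1 and Trib3, 2.02 to 5.57 on the log2 scale), a middle one (Atf4, 0.71) and a small one (Ppp1r15a, Sesn2, Cebpg and Ddit3, at most 0.22).

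The order of levels per kilobase of exon differed between the groups. In Trmt6-/- it ran from Atf4 (112 ± 24.1 CPM per kb) and Atf5 (41.9 ± 10.4) through Cebpg (19.5 ± 1.19), Eif4ebp1 (18.4 ± 0.968), Trib3 (12.1 ± 2.91), Chac1 (7.21 ± 2.78), Ddit3 (6.55 ± 2.15) and Sesn2 (4.94 ± 0.161) to Ppp1r15a (2.82 ± 0.255) and Adm2 (2.42 ± 0.556). Cebpg and Eif4ebp1, each neighbouring pair from Trib3 to Sesn2, and Ppp1r15a and Adm2 overlapped in their library ranges. In WT the order was Atf4 (68.6 ± 9.79 CPM per kb), Cebpg (18.7 ± 3.70), Ddit3 (6.56 ± 2.09), Atf5 (5.75 ± 1.44), Sesn2 (4.36 ± 0.321), Eif4ebp1 (3.77 ± 1.84), Trib3 (3.00 ± 1.58), Ppp1r15a (2.42 ± 1.72), Chac1 (0.244 ± 0.184) and Adm2 (0.0422 ± 0.0403). All neighbours in WT from Ddit3 to Ppp1r15a overlapped, as did Chac1 and Adm2. Per length, Atf5 was thus above Cebpg in every library labelled Trmt6-/- and below it in every WT library. This crossing depended on dividing by exon length. In plain CPM Atf5 was below Cebpg in every library, at 82.6, 63.3 and 105 against 104, 107 and 117 CPM in Trmt6-/-.

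Ratios within a library do not depend on library scaling. The level of Atf5 relative to Atf4, each per length, was 0.387, 0.350 and 0.380 in Trmt6-/-, against 0.111, 0.0755 and 0.0674 in WT. The ratio hardly varied among the libraries labelled Trmt6-/-, although both genes were lowest in KO73 and highest in KO75. Chac1 relative to Ddit3 was 1, 1.07 and 1.20 in Trmt6-/-, against 0.0682, 0.0051 and 0.0551 in WT. Ddit3 itself ranged from 7.12 to 14.2 CPM among the libraries labelled Trmt6-/-, a wider range than that of the ratio. Ddit3 relative to Atf4 overlapped between groups, at 0.0671, 0.0458 and 0.0601 in Trmt6-/- and 0.0634, 0.135 and 0.0921 in WT. Cebpg relative to Atf4 was 0.174, 0.210 and 0.151 in Trmt6-/- and 0.218, 0.342 and 0.266 in WT, without overlap.

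**Figure D2:**
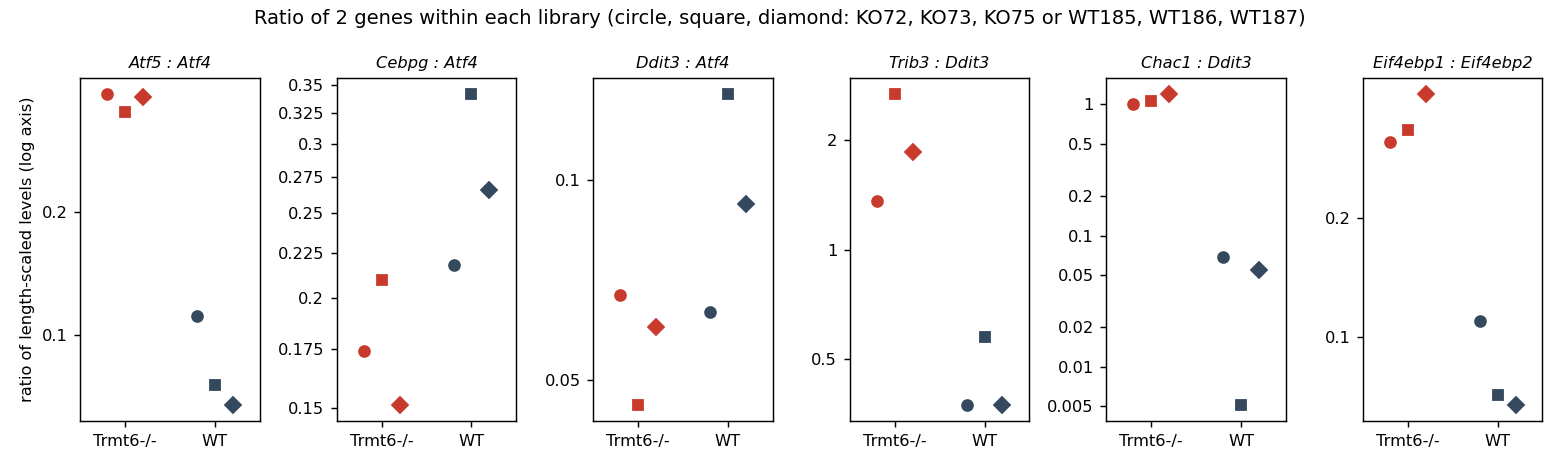
Ratio of the length-scaled levels of 2 genes within each library (y axis, log scale) for 6 pairs, libraries labelled Trmt6-/- left in red and WT right in dark blue. Atf5 to Atf4 lies between 0.350 and 0.387 in Trmt6-/- and at most 0.111 in WT, whereas Ddit3 to Atf4 overlaps.

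Many of the 10 genes had the same highest or lowest library within a group. KO75 was the highest library of its group for 7 of the 10 genes and KO73 the lowest for 6 (Atf4, Atf5, Ddit3, Chac1, Ppp1r15a and Adm2). In WT, WT186 was the lowest for 7. Trib3 and Ddit3 went the other way in WT and were highest in WT186. Some of these differences were small, and the shares of all genes with the same highest or lowest library are not given here. With the regional index as a covariate the log2 fold changes were 0.83 ± 0.25 for Atf4, 2.76 ± 0.31 for Atf5, 2.92 ± 0.29 for Trib3, 4.88 ± 0.75 for Chac1, 1.91 ± 0.30 for Eif4ebp1 and 5.34 ± 0.77 for Adm2. In the same fit they were 0.54 ± 0.40 for Ddit3, 0.36 ± 0.17 for Cebpg, 0.07 ± 0.20 for Sesn2 and 0.46 ± 0.70 for Ppp1r15a. Atf5 was not called in that fit, although its fold change was close to that without the covariate (2.86 ± 0.27).

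Of 13 close relatives of the 10 genes that could be tested, 0 were called by edgeR over all genes and 0 by DESeq2 or limma-voom. An unadjusted p below 0.05 was found for 3 of them, against 1706 of 14107 over all genes tested. Their median log2 fold change was -0.235, with 5 of 13 above 0 (46.1% of all genes tested). Without overlap, 1 of 13 stood higher (Eif4ebp3) and 1 lower (Sesn1), against 9.7% and 9.03% of all genes tested. Among the C/EBP family, Cebpd stood at 13.2, 28.1 and 35.8 CPM in Trmt6-/-, against 10.2, 5.80 and 15.2 CPM in WT (adjusted p = 0.342), and the groups overlapped. Cebpa averaged 117 ± 17.8 CPM in Trmt6-/- and 88.4 ± 23.5 CPM in WT, and Cebpb 31.2 ± 1.69 CPM in Trmt6-/- and 36.8 ± 8.09 CPM in WT. Cebpe, a factor of granulocyte development, was too scarce to test. Atf3, a stress-induced factor downstream of ATF4, stood at 22.1, 8.38 and 5.34 CPM in Trmt6-/-, against 3.96, 13.9 and 73.8 CPM in WT. WT187 was the highest library for Atf3 as for Ppp1r15a and Fos, and the log2 fold change of Atf3 was -1.35 with all libraries and 0.42 without WT187.

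The other tribbles genes overlapped between the groups. Trib1, which marks C/EBPα for degradation, averaged 47.4 ± 18.2 CPM in Trmt6-/- and 67.7 ± 25.2 CPM in WT, and Trib2 1.13 ± 0.830 CPM in Trmt6-/- and 1.32 ± 1.37 CPM in WT. Chac2, the relative of Chac1, stood at 8.07, 9.36 and 12.2 CPM in Trmt6-/-, against 8.39, 21.7 and 8.45 CPM in WT. Of the other sestrins, Sesn1 averaged 76.9 ± 9.34 CPM in Trmt6-/- and 134 ± 37.8 CPM in WT without overlap (log2 fold change -0.80 ± 0.24, adjusted p = 0.275), and Sesn3 27.4 ± 2.33 CPM in Trmt6-/- and 35.9 ± 10.5 CPM in WT.

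Ppp1r15b, the constitutive counterpart of Ppp1r15a, averaged 219.8 ± 14.3 CPM in Trmt6-/- and 226 ± 41.2 CPM in WT. Eif4ebp2, which encodes another 4E-BP protein, averaged 304 ± 29.8 CPM in Trmt6-/- and 254 ± 52.9 CPM in WT (adjusted p = 0.703). Per length, Eif4ebp1 reached 0.312, 0.335 and 0.412 of Eif4ebp2 in Trmt6-/-, against 0.110, 0.0716 and 0.0673 in WT. Eif4ebp3 stood higher without overlap at 2.55 ± 1.37 CPM in Trmt6-/- and 0.890 ± 0.112 CPM in WT (adjusted p = 0.308). Adm, which encodes adrenomedullin, averaged 1.52 ± 0.551 CPM in Trmt6-/- and 0.926 ± 0.288 CPM in WT, with overlap.

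**Figure D3:**
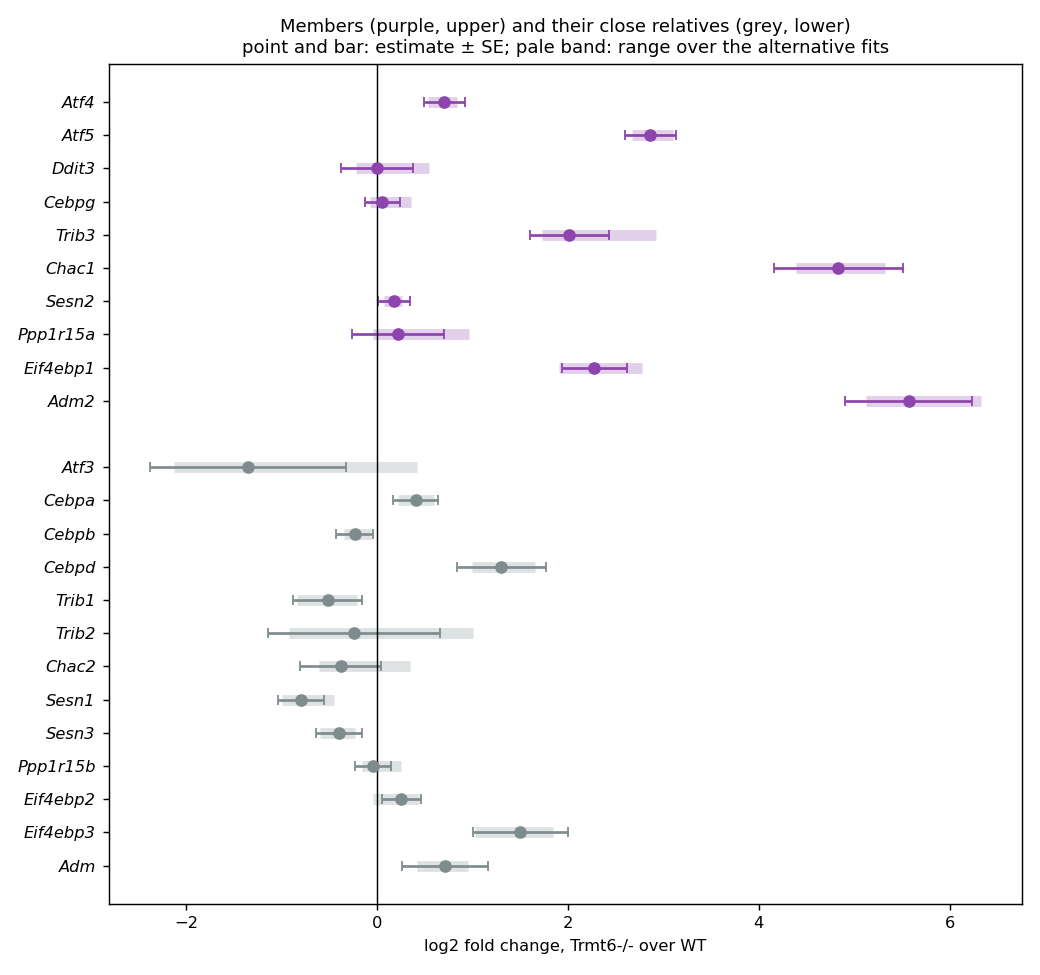
Log2 fold change of Trmt6-/- over WT (x axis) for the 10 genes (purple) and 13 tested relatives (grey); bars are ± SE and pale bands the range over the alternative fits. Adm2, Chac1, Atf5, Eif4ebp1 and Trib3 lie at 1.72 or above in every fit shown, and Ddit3, Cebpg, Ppp1r15a and several relatives cross 0.

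Upstream of ATF4, 0 of 18 genes for eIF2 kinases and eIF2 control were called by edgeR or limma-voom. An unadjusted p below 0.05 was found for 1 (1706 of 14107 over all genes), and DESeq2 called 1 (554 of 16489). The median log2 fold change was 0.00409, with 9 of 18 above 0 (46.1% of all genes tested). Without overlap, 2 of 18 stood higher and 2 lower, against 9.7% and 9.03% of all genes tested. The gene with the smallest p was Eif2s2, the beta subunit of eIF2, at 211 ± 28.2 CPM in Trmt6-/- and 114 ± 22.1 CPM in WT (log2 fold change 0.89 ± 0.20, edgeR adjusted p = 0.190). It was followed by Oma1, the mitochondrial protease that starts the stress relay to eIF2 kinase HRI, at 14.5 ± 0.978 CPM in Trmt6-/- and 18.8 ± 2.57 CPM in WT (edgeR adjusted p = 0.495). Eif2b3, a subunit of the eIF2 exchange factor, averaged 10.3 ± 1.01 CPM in Trmt6-/- and 6.42 ± 2.37 CPM in WT (edgeR adjusted p = 0.495).

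Downstream, ATF4 target enzymes and transporters had a median log2 fold change of 0.92, with 18 of 20 above 0 (46.1% of all genes tested). Without overlap, 9 of 20 stood higher in Trmt6-/- (9.7% of all genes tested) and 0 lower (9.03%). Like the other lists, this one was written with earlier results of these data known, so nothing is read from its counts. None of the 20 was called by edgeR over all genes, 8 had an unadjusted p below 0.05, DESeq2 called 6 and limma-voom 0. Over all genes, 1706 of 14107 had an unadjusted p below 0.05 and DESeq2 called 554 of 16489. Slc7a11 stood at 13.9, 7.05 and 10.7 CPM in Trmt6-/-, against 0.886, 0.0682 and 0.420 CPM in WT (edgeR adjusted p = 0.123). Its WT counts were 17, 1 and 7, so it too entered the test only through the libraries labelled Trmt6-/-. As for Chac1, KO73 was the lowest library of its group and WT186 the lowest of WT. The glycine transporter gene Slc6a9 averaged 20.6 ± 1.89 CPM in Trmt6-/- and 5.83 ± 2.62 CPM in WT, and the serine synthesis gene Psat1 64.1 ± 25.4 CPM in Trmt6-/- and 14.2 ± 7.67 CPM in WT, with edgeR adjusted p of 0.173 and 0.202.

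Other stress-induced effectors had a median of 0.58, with 15 of 16 above 0 (46.1% of all genes tested), 8 of 16 higher without overlap (9.7%) and 0 lower without overlap (9.03%). Nothing is read from these counts either, because earlier results of these data were known when the list was written. None was called by edgeR or limma-voom, 6 had an unadjusted p below 0.05 (1706 of 14107 over all genes) and DESeq2 called 3 (554 of 16489). Vldlr, a lipoprotein receptor gene, averaged 15.7 ± 6.97 CPM in Trmt6-/- and 4.17 ± 1.46 CPM in WT (edgeR adjusted p = 0.190), and the stress-induced chromatin protein gene Nupr1 15.9 ± 5.82 CPM in Trmt6-/- and 5.26 ± 2.74 CPM in WT (edgeR adjusted p = 0.284). Ndrg1, a gene induced by hypoxia and other stress, averaged 155 ± 3.25 CPM in Trmt6-/- and 96.4 ± 22.3 CPM in WT (edgeR adjusted p = 0.251).

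The chaperone genes and the ATF6 and IRE1 arms of the unfolded protein response run beside the ATF4 arm. They had a median of 0.03, with 9 of 17 above 0 (46.1% of all genes tested). Without overlap, 4 of 17 stood higher and 1 lower, against 9.7% and 9.03% of all genes tested. None was called by edgeR, DESeq2 or limma-voom, and 2 had an unadjusted p below 0.05 (1706 of 14107 over all genes). Xbp1, the factor of the IRE1 arm, stood at 260, 336 and 584 CPM in Trmt6-/-, against 216, 205 and 193 CPM in WT (edgeR adjusted p = 0.300), and KO75 was the highest library. Atf6 averaged 94.7 ± 7.25 CPM in Trmt6-/- and 73.4 ± 5.79 CPM in WT, and Herpud1, a gene of endoplasmic reticulum degradation, 156 ± 5.73 CPM in Trmt6-/- and 124.6 ± 14.9 CPM in WT.

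A list for the mitochondrial stress response, with which ATF5 is linked, had a median of -0.26, with 3 of 12 above 0 (46.1% of all genes tested). Without overlap, 0 of 12 stood higher and 2 lower, against 9.7% and 9.03% of all genes tested. None was called by edgeR or limma-voom, 1 had an unadjusted p below 0.05 (1706 of 14107 over all genes) and DESeq2 called 1 (554 of 16489). That gene was Hspa1b, which encodes a cytosolic heat shock protein, at 3.67, 5.73 and 2.56 CPM in Trmt6-/-, against 47.3, 11.2 and 77.0 CPM in WT (edgeR adjusted p = 0.173). Next by p, the mitochondrial nuclease gene Endog averaged 15.1 ± 1.89 CPM in Trmt6-/- and 19.2 ± 2.11 CPM in WT. The ubiquitin-like protein gene Ubl5 averaged 39.0 ± 4.87 CPM in Trmt6-/- and 47.6 ± 7.91 CPM in WT.

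Cap-binding and mTORC1 genes around 4E-BP1 had a median of -0.10, with 5 of 17 above 0 (46.1% of all genes tested). Without overlap, 2 of 17 stood higher and 3 lower, against 9.7% and 9.03% of all genes tested. None was called by edgeR or limma-voom, 3 had an unadjusted p below 0.05 (1706 of 14107 over all genes) and DESeq2 called 1 (554 of 16489). Rragd, a GTPase gene through which amino acids recruit mTORC1, stood at 32.6, 57.7 and 73.3 CPM in Trmt6-/-, against 97.1, 212 and 182 CPM in WT (edgeR adjusted p = 0.210), without overlap. Rptor, the scaffold of mTORC1, averaged 54.2 ± 1.57 CPM in Trmt6-/- and 75.8 ± 11.4 CPM in WT, and the initiation factor gene Eif4g3 108 ± 5.03 CPM in Trmt6-/- and 75.5 ± 11.9 CPM in WT.

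**Figure D4:**
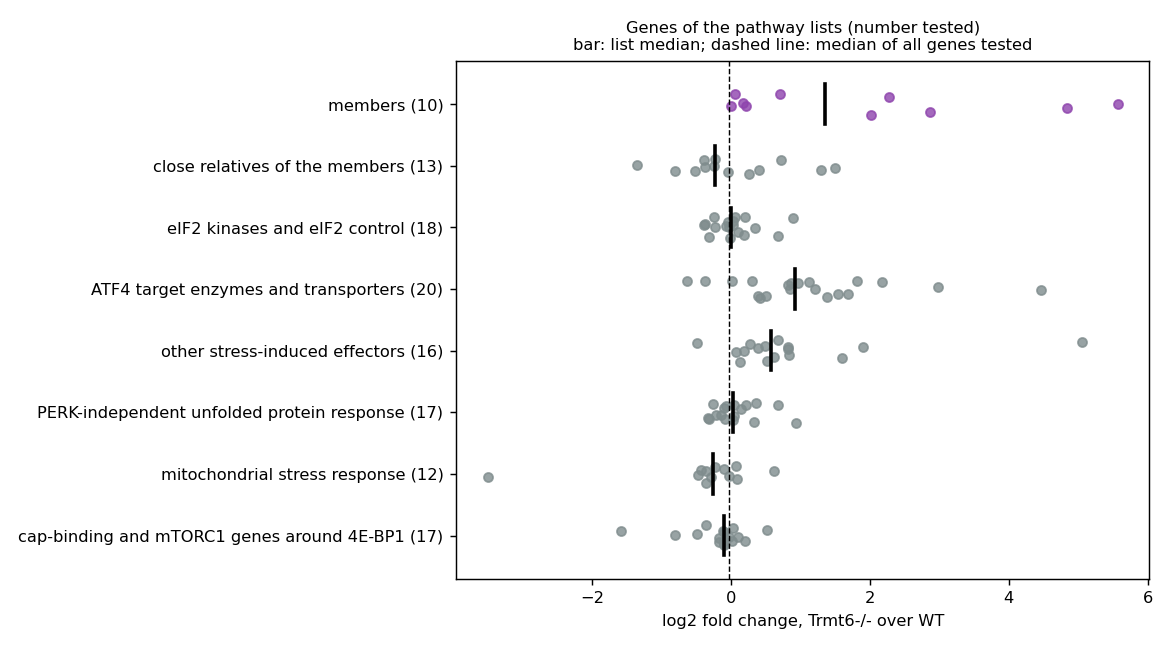
Log2 fold change of Trmt6-/- over WT (x axis) for each tested gene of the 10, of their close relatives and of the 6 pathway lists (rows), with black bars at list medians and a dashed line at the median of all genes tested, -0.03. The ATF4 target and effector lists lie mostly right of the line, while the eIF2, unfolded protein, mitochondrial and cap-binding lists lie around it or left of it. All lists were written with earlier results of these data known.

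The genes whose pattern over the 6 libraries was most like that of Atf4 were found by the root mean square difference of centred log2 CPM, among tested genes of at least 5 CPM on average. The nearest was Nars, the asparaginyl-tRNA synthetase gene, with a difference of 0.0543, at 435, 369 and 584 CPM in Trmt6-/-, against 282, 265 and 312 CPM in WT. It was followed by C1galt1 (0.108), 1110059E24Rik (0.112), Sytl2 (0.118) and Phf10 (0.120). The order of the 6 libraries was the same for Nars as for Atf4. For Atf5 the nearest genes were Zfp791 (0.322), Bcl2l15 (0.374), Wtip (0.395), Gcnt3 (0.421) and Prss27 (0.440). Each of these 10 neighbours was higher in Trmt6-/- without overlap, as the genes they were matched to were, and the likeness covers 6 libraries that differ in genotype.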

How the data were processed

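RNA-seq of intestinal tissue from 3 Trmt6-/- and 3 WT mice was analysed. The deposited values are raw gene counts, made with featureCounts 2.0.1 on exons of GENCODE M23 with paired reads and no strand option, per the file headers, so reads shared between genes were left out. The deposited gene length column (another unit, bases of exon) was used to scale levels. The submitters' processing notes name fastp, HISAT2 and mm10. Column names give a group and an animal number, and were assigned by group.

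Symbols came from the GENCODE M21 table (55154 of 55335 identifiers matched). After filterByExpr and TMM scaling, genotype was fitted alone in edgeR 4.0.16 (R 4.3.3) by its quasi-likelihood method, two-sided, with Benjamini-Hochberg adjustment over 14107 genes and a threshold of 0.05. SE is the log2 fold change divided by the square root of F. Log2 CPM used a prior count of 2. The alternatives were other scalings and filters, DESeq2 1.42.0, limma-voom (limma 3.58.1), covariates and each library left out; the fitting code was tested on simulated data. No pair of libraries was a duplicate (chi-square per degree of freedom of at least 49.4). The series design gives 3 mice per genotype. Libraries were made from amplified cDNA, per the labels' protocols, and intervals cover counting error only.

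The 10 genes, all gene lists and the naming rule were chosen with earlier results of these data known. The rule named the 10 genes, their relatives, up to 4 called genes or, with none called, the 3 smallest p at 5 CPM or more from each list, and the 5 genes most like Atf4 and Atf5.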

Additional observations from a re-analysis of the deposited data

How the results depend on the processing

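Each result was recomputed in 15 alternative fits. The log2 fold changes of Atf4, Atf5, Trib3, Chac1, Sesn2, Eif4ebp1 and Adm2 kept their sign in all 15, and those of Ddit3, Cebpg and Ppp1r15a changed sign in 9, 2 and 2. The number of genes called was 6 (5 higher, 1 lower). It was 0 with library totals, limma-voom or the regional index, and 0 to 6 with 1 library left out. DESeq2 called 554 of 16489 genes, and the fit with no low-count filter 159 of 26973. Of the 10 genes, 1 was called. The count was 0 with upper-quartile scaling, library totals, limma-voom, the regional index or the leukocyte index, 5 with DESeq2 and with no low-count filter (Atf5, Trib3, Chac1, Eif4ebp1 and Adm2 in each), and 0 to 1 with 1 library left out, where the 1 was Eif4ebp1 without WT185. Of 113 tested genes of the relatives and pathway lists edgeR called 0, against 12 with DESeq2 and 7 with no low-count filter. The cause of these changes was not tested. Dividing by exon length or not changed the order of levels among the 10 genes.

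No paired analysis was possible because the count columns carry animal numbers and not the replicate numbers of the labels. Depth limits Adm2 and Chac1 in WT, with 3 and 21 counts over 3 libraries.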
